A study of Rattus norvegicus with 36 samples.

Results

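Titanium dioxide G1-1 was compared with the titanium dioxides G3-1 and Bayertitan for what particle overload did to gene expression in rat alveolar macrophages, the phagocytes of the lung's air spaces. For each gene, the log2 fold change of overload over control with G1-1 was taken, and the mean of the same log2 fold changes with G3-1 and with Bayertitan was subtracted from it. The result is called the difference of overload effects. It used 18 of the 36 libraries of the study, 3 in each of 6 groups: G1-1 overload and G1-1 control, G3-1 overload and G3-1 control, and Bayertitan overload and Bayertitan control. Each library was bulk RNA-seq of primary cells taken from male rats of the F344/HanZtmRj strain, cultured for 5 days in medium with 10% serum and held in a condition for 4 days. The other libraries were non-overload cultures with the 3 titanium dioxides and all cultures with Printex90, a carbon black. Doses behind overload and non-overload, the animals behind each library and the physical properties of the particles are not given in the sources used here. The labels call the replicates biological but name no animal or pool, so p-values measure only the spread between these libraries.

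Macrophages that take up poorly soluble particles load their lysosomes, and beyond a certain burden clearance slows, which is what the term overload refers to. In the integrated stress response, phosphorylation of a translation initiation factor slows protein synthesis and favours translation of ATF4. This transcription factor induces amino acid transporters, transfer RNA synthetases, amino acid synthesis enzymes and Trib3. Hypoxia-inducible factors are held low by prolyl hydroxylases and, when stable, induce glucose transporters, glycolytic enzymes and those same hydroxylases. Alveolar macrophages also make complement C1q and class II molecules, which opsonise targets and present antigen.

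Column totals of the 18 libraries ran from 22274320 to 37131475 estimated counts, and mitochondrially encoded genes took 2.02 to 3.13% of them. The macrophage markers Cd68 (539.2 to 879 CPM) and Lyz2 (10060 to 16767 CPM) were high in every library. Marco, a scavenger receptor of alveolar macrophages, reached no more than 0.36 CPM. Markers of other lung cells were present and moved with the comparison. The 6 epithelial markers summed to 1270 to 1390 CPM in G1-1 overload libraries and 987 to 1510 CPM in G1-1 controls. They summed to 744 to 963 CPM in G3-1 overload libraries and 984 to 1250 CPM in G3-1 controls, and to 760 to 1280 CPM in Bayertitan overload libraries and 1300 to 1530 CPM in Bayertitan controls. None of the 6 was at 0 in any group, whereas Sftpc, the surfactant gene that defines alveolar type II cells, was at 0 in all 18 libraries. As the mean of log2(CPM + 1) over the markers, overload changed them by 0.27 with G1-1, by -0.54 with G3-1 and by -0.74 with Bayertitan, a difference of overload effects of 0.90. An exact permutation test of overload and control labels within particles gave a two-sided p of 0.00675 for it. None of the 6 markers passed edgeR's test for the difference singly, with 4 at an unadjusted p under 0.05. Fibroblast markers were high in some libraries of each group: Col3a1 passed 10 CPM in 7 of the 18, namely G1-1 overload 1, G1-1 control 1, G3-1 overload 2 and 3, G3-1 control 3, Bayertitan overload 1 and Bayertitan control 3. The 8 tested fibroblast markers summed to 48.1 to 1160 CPM in G1-1 overload libraries and 51.7 to 168 CPM in G1-1 controls. The sums were 46.5 to 1740 CPM in G3-1 overload libraries and 48.4 to 1150 CPM in G3-1 controls, and 41.5 to 973 CPM in Bayertitan overload libraries and 49.3 to 609 CPM in Bayertitan controls. The difference of overload effects on their mean was 0.042 (two-sided exact permutation p = 0.994), and none passed edgeR's test singly, with 1 at an unadjusted p under 0.05. The part of these cells in the results was not tested beyond the fits given beside each group of genes. In bulk libraries, fewer cells of a type and less RNA per cell cannot be told apart.

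**Figure D1:**
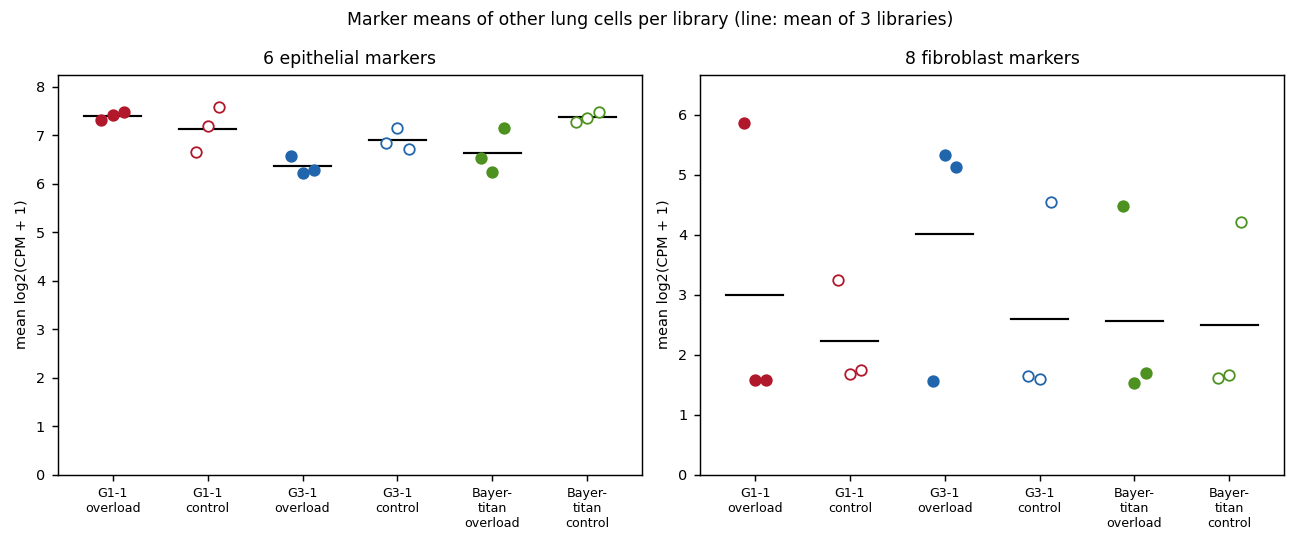
Mean log2(CPM + 1) of 6 epithelial markers (left) and 8 fibroblast markers (right) in each of the 18 libraries, with filled points for overload, open points for control and a line at the mean of 3 libraries. Epithelial means are lower at overload with G3-1 and Bayertitan and not with G1-1, and the fibroblast mean is high in 2 of the 3 G3-1 overload libraries and in 1 of 3 in each other group.

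The overload effect of G1-1 differed from the mean effect of the other titanium dioxides for 431 of 14498 tested genes, 136 with a higher and 295 with a lower effect (edgeR's quasi-likelihood test, Benjamini-Hochberg adjusted p under 0.05). These are 2.97% of the genes tested, 0.938% in the higher and 2.03% in the lower direction. At an unadjusted p under 0.05 there were 2672 of the 14498. The median log2 difference over all tested genes was -0.012, and 29 of the higher and 18 of the lower genes passed a 2-fold difference. Among the 136 genes, the median overload effect on the log2 scale was 0.45 with G1-1, -0.019 with G3-1 and -0.12 with Bayertitan. Among the 295 genes it was -0.35 with G1-1, 0.035 with G3-1 and 0.19 with Bayertitan. These medians describe genes chosen by the same contrast and test nothing.

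Against each particle alone, the effect of G1-1 differed for 703 genes from that of Bayertitan (204 higher and 499 lower, 4.85% of those tested, or 1.41% and 3.44%) and for 31 genes from that of G3-1 (11 higher and 20 lower, 0.214%, or 0.0759% and 0.138%). Both contrasts use the same G1-1 libraries. Against Bayertitan 3214 of the 14498 genes were at an unadjusted p under 0.05, and against G3-1 1439. Between the effects of G3-1 and Bayertitan, 0 genes passed by edgeR, with 1277 at an unadjusted p under 0.05 and 6 by DESeq2. Taken singly, overload with G1-1 changed 727 genes (334 higher and 393 lower, 5.01%, or 2.3% and 2.71%), with G3-1 17 genes (13 higher and 4 lower, 0.117%, or 0.0897% and 0.0276%) and with Bayertitan 1426 genes (832 higher and 594 lower, 9.84%, or 5.74% and 4.1%). At an unadjusted p under 0.05 these 3 effects had 2441, 1770 and 4106 genes, in that order. With the mean of the epithelial markers added as a covariate the main contrast had 1635 such genes. Unadjusted counts of gene lists below stand beside these totals. The main count with that covariate was 120, and 106 of these were among the 431. Without the 15 of 36 libraries with Col3a1 above 10 CPM it was 0 by edgeR, with 1225 at an unadjusted p under 0.05, in a fit that left 1 G3-1 overload library, which is assumed to vary like the others. All 431 genes had the direction of the main fit in both. As the genes were chosen by this contrast on libraries that both fits reuse, nothing is read from that. The count was 112 without G1-1 control 1, 163 without G1-1 control 2, 146 without G1-1 overload 1, 166 without G1-1 overload 3, 267 without Bayertitan control 3 and 275 without Bayertitan overload 2.

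**Figure D2:**
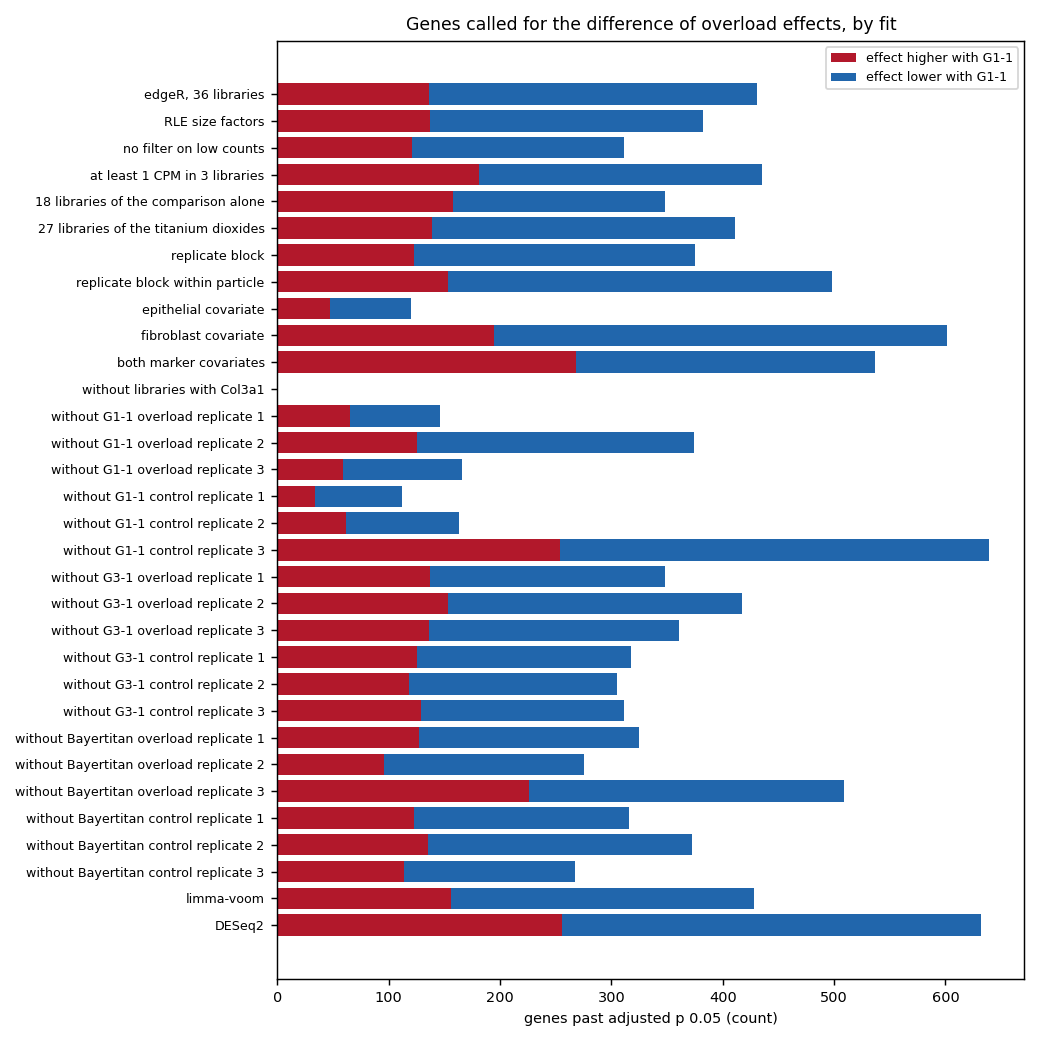
Number of genes past an adjusted p of 0.05 for the difference of overload effects, in the main edgeR fit and in each of 31 other fits, split by direction. The count is 431 in the main fit, 120 with the epithelial covariate and 0 without the libraries with Col3a1.

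Genes of the integrated stress response had a higher overload effect with G1-1 than with the other particles on average. Of 38 tested members of the list, 16 passed with a higher and 1 with a lower effect, and the median log2 difference was 0.55. Of all tested genes 0.938% passed higher and 2.03% lower, and the 1 lower member is near the latter share. Within single particles, 19 members rose and 1 fell with G1-1 overload, and 2 rose and 4 fell with Bayertitan overload. Of all tested genes 2.3% rose and 2.71% fell with G1-1, and 5.74% rose and 4.1% fell with Bayertitan. The 1 that fell with G1-1 and the 2 that rose with Bayertitan are near those shares. With G3-1 overload the count was 0 of 38 by edgeR, with 6 at an unadjusted p under 0.05 and 1 by DESeq2. Trib3, a pseudokinase induced by ATF4 and CHOP, was at 23.6, 17.5 and 23.5 CPM in the G1-1 overload libraries, against 6.91, 6.67 and 9.48 CPM in the G1-1 controls. With G3-1, Trib3 was at 8.5, 9.61 and 11.5 CPM at overload and 6.01, 8.23 and 8.72 CPM in controls. With Bayertitan, Trib3 was at 5.98, 4.28 and 6.56 CPM at overload and 9.84, 9.06 and 10.6 CPM in controls. The 3 G1-1 overload libraries were above all others, and the Bayertitan overload libraries were below their controls. The difference of overload effects was 1.71 ± 0.24 (adjusted p = 0.000168). Set against each particle alone, it was 2.30 (adjusted p = 2.26e-05) for Bayertitan and 1.12 (adjusted p = 0.0944) for G3-1.

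The members that passed reach from the transcription factors to their targets. Atf4 itself was at 280.4, 242 and 269.8 CPM in the G1-1 overload libraries, against 179, 194 and 208 CPM in the G1-1 controls. With G3-1, Atf4 was at 194, 191 and 209 CPM at overload and 169.6, 190.1 and 190.2 CPM in controls. With Bayertitan, Atf4 was at 190.1, 172 and 201 CPM at overload and 194, 216 and 222 CPM in controls. Its G1-1 overload libraries were the highest of the 18, and overload and control overlapped with Bayertitan. The difference was 0.47 ± 0.096 (adjusted p = 0.00635), from overload effects of 0.45 with G1-1, 0.11 with G3-1 and -0.17 with Bayertitan. Ddit3, which encodes CHOP, differed by 0.46 ± 0.12 (adjusted p = 0.0325). Ppp1r15a, a phosphatase subunit that reverses the initiation factor's phosphorylation, differed by 0.43 (adjusted p = 0.00278). Chac1, an enzyme that degrades glutathione, differed by 1.70, with effects of 1.48 with G1-1, 0.29 with G3-1 and -0.74 with Bayertitan (adjusted p = 0.00935 for the difference). Ddit4, an inhibitor of mTORC1, differed by 1.5 (adjusted p = 0.0474), and Sesn2, another such inhibitor, by 0.39 ± 0.094 (adjusted p = 0.0223). Stc2, a secreted glycoprotein, had the largest difference among named genes, 2.88 ± 0.75 (adjusted p = 0.0325), at levels of 8.89, 5.47 and 12.9 CPM in G1-1 overload libraries and 1.01, 1.48 and 3.96 CPM in G1-1 controls. The call for Stc2 was lost with the epithelial covariate, at 1.81 (adjusted p = 0.21), and held in 9 of the 18 fits without 1 library. Cebpg, a partner of ATF4 on DNA, was the member with a lower effect, -0.24 (adjusted p = 0.0419).

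Gdf15, a circulating stress cytokine of the TGF-beta family, stood at 34.5, 25.8 and 39.2 CPM in the G1-1 overload libraries, against 13.7, 19.1 and 15 CPM in the G1-1 controls. With G3-1, Gdf15 was at 14.5, 13.8 and 16.8 CPM at overload and 14.7, 13.6 and 12.7 CPM in controls. With Bayertitan, Gdf15 was at 20.1, 20.1 and 15.1 CPM at overload and 21.6, 17.8 and 16.4 CPM in controls. The 3 G1-1 overload libraries exceeded the other 15, while overload and control overlapped with G3-1 and with Bayertitan. The difference was 0.99 ± 0.18 (adjusted p = 0.00265). Genes of amino acid handling were among those that passed. Asns, which makes asparagine, differed by 0.65 (adjusted p = 0.0469), and Mthfd2, a mitochondrial enzyme of one-carbon metabolism, by 0.66 (adjusted p = 0.0242). The transporters Slc7a1 (cationic amino acids) and Slc1a4 (neutral amino acids) differed by 0.66 (adjusted p = 0.00455) and 0.35 (adjusted p = 0.0051). Cars, the cysteinyl transfer RNA synthetase, averaged 67.4 ± 6.68 CPM at G1-1 overload and 52.3 ± 5.19 CPM in controls, with effects of 0.37 with G1-1, -0.078 with G3-1 and -0.31 with Bayertitan and a difference of 0.56 ± 0.10 (adjusted p = 0.00271). The seryl and tryptophanyl synthetases Sars1 and Wars1 differed by 0.36 (adjusted p = 0.0287) and 0.24 (adjusted p = 0.0334). Nupr1, Slc7a5, Pycr1, Phgdh and Atf5 had differences of 1.87, 1.11, 1.10, 0.78 and 0.72 and did not pass, with adjusted p between 0.108 and 0.246. Aldh18a1 was at 0 in most of the 18 libraries and is left without a value.

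Epithelial markers moved in the same direction, by 0.90 on the mean log2(CPM + 1) scale. With their mean as a covariate, 7 of 38 members passed, all higher, and the list's median difference was 0.41. Trib3 then had a difference of 1.56 (adjusted p = 0.00146) and Atf4 0.39 (adjusted p = 0.0556). Without the libraries with Col3a1 none passed by edgeR, with 23 at an unadjusted p under 0.05, and the median was 0.51. Against Bayertitan alone 18 members passed higher and 1 lower (median 0.77). Against G3-1 alone the count was 0 of 38 by edgeR, with 17 at an unadjusted p under 0.05 and 7 by DESeq2, and the median difference was 0.33. Of all tested genes, 1439 of 14498 were at that unadjusted p against G3-1.

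**Figure D3:**
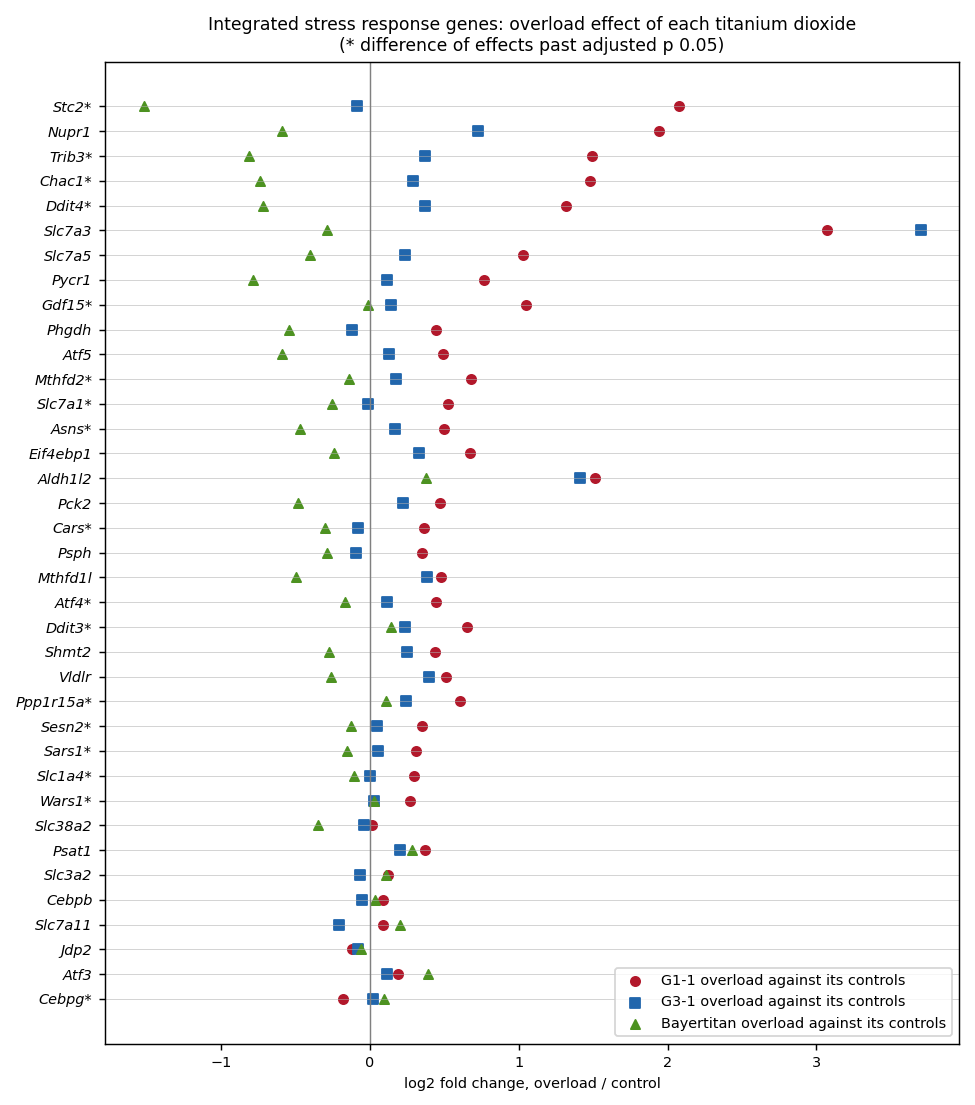
Overload effect of each titanium dioxide (log2 fold change, overload over control) for 37 tested integrated stress response genes, with Aldh18a1 left out for its zeros and an asterisk on genes whose difference of effects passed. For Trib3 the G1-1 effect is 1.49, the G3-1 effect 0.37 and the Bayertitan effect -0.81.

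ATF4 binds with C/EBP partners at an element read here as TGATGNAA on either strand. It was looked for in the 300 bases from 250 before to 50 after the start of each gene in a RefSeq promoter table (build GRCr8). Promoters were found for 33 of the 38 tested members, and 9 of these (27.3%) held a match, as did 1141 of 27457 genes in the table (4.16%). The table also holds genes that were not tested here, so its share is not matched to the list. Of the 16 members with a higher effect, 5 held it: Trib3, Chac1, Slc7a1, Slc1a4 and Cars. A match is a description of the letters and not a shown binding site. The promoters of Cars (Cars1 in RefSeq) and Chac1 are given because both genes passed and each window holds a single match, in capitals, with the element read on the strand opposite the gene. The windows are Cars1, chr1:208225320-208225619, minus strand, and Chac1, chr3:126795881-126796180, plus strand. The match starts 17 bases after the start site in Cars1 and 167 bases before it in Chac1.
Cars1: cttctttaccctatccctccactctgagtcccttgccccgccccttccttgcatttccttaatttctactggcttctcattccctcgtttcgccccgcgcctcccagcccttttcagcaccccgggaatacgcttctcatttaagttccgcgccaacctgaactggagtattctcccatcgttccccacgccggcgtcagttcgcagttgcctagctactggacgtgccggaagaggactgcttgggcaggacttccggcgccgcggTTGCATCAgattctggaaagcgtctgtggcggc
Chac1: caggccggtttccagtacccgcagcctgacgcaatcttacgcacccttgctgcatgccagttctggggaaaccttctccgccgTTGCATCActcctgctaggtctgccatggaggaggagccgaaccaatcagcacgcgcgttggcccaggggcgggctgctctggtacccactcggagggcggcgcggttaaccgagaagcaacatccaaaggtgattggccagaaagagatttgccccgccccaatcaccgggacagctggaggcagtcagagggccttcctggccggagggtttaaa

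Of 25 tested genes of glucose uptake and glycolysis 5 passed with a higher effect and 0 with a lower (median 0.22): Slc2a1, Hk2, Gys1, Pfkfb3 and Aldoa. Overload itself raised 18 of these with G1-1, 6 with G3-1 and 5 with Bayertitan, and lowered none of them past edgeR's test. The shares raised among all tested genes were 2.3%, 0.0897% and 5.74%, in that order. For the difference of overload effects 0.938% of all tested genes passed higher. Slc2a1, the glucose transporter GLUT1, was at 613, 544 and 626 CPM in the G1-1 overload libraries, against 280.1, 307 and 339 CPM in the G1-1 controls. With G3-1, Slc2a1 was at 332, 335 and 346 CPM at overload and 243, 261 and 245 CPM in controls. With Bayertitan, Slc2a1 was at 232, 232 and 231 CPM at overload and 228, 231 and 194 CPM in controls. Overload libraries lay above their own controls with each particle, with Bayertitan by a narrow margin, and G1-1 overload libraries lay above all others. The difference of overload effects was 0.68 ± 0.086 (adjusted p = 6.48e-05), from effects of 0.94 with G1-1, 0.44 with G3-1 and 0.091 with Bayertitan. It passed against G3-1 alone (0.51, adjusted p = 0.0255) and against Bayertitan alone (0.85, adjusted p = 2.26e-05). The G1-1 controls were already 0.40 higher on the log2 scale than the controls of the other particles (adjusted p = 0.000338).

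Hk2, a hexokinase that traps glucose in the cell, was at 1025, 899.8 and 1067 CPM in the G1-1 overload libraries, against 490.2, 531 and 509.9 CPM in the G1-1 controls. With G3-1, Hk2 was at 603, 649.5 and 631 CPM at overload and 469.7, 468 and 472 CPM in controls. With Bayertitan, Hk2 was at 412, 482 and 421 CPM at overload and 394, 387 and 353 CPM in controls. Its G1-1 overload libraries were again the highest of the 18. The difference was 0.65 ± 0.10 (adjusted p = 0.000589), and it passed against G3-1 alone at 0.55 (adjusted p = 0.041). Pfkfb3, whose product makes an activator of phosphofructokinase, averaged 328 ± 17.4 CPM at G1-1 overload and 210 ± 0.748 CPM in controls, with effects of 0.64 with G1-1, 0.42 with G3-1 and 0.094 with Bayertitan. Its difference was 0.39 ± 0.07 (adjusted p = 0.00273), while against G3-1 alone it was 0.23 (adjusted p = 0.295). Gys1, glycogen synthase, and Aldoa, an aldolase, differed by 0.67 (adjusted p = 0.0159) and 0.21 (adjusted p = 0.0419). The later enzymes Pgk1, Ldha and Tpi1 had G1-1 effects of 0.51, 0.29 and 0.54 beside G3-1 effects of 0.45, 0.30 and 0.48. Their differences of 0.21, 0.14 and 0.28 did not pass.

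Txnip, an arrestin that limits glucose uptake and is induced by glucose-sensing MondoA, was at 44.6, 73.4 and 59.5 CPM in the G1-1 overload libraries, against 228, 189 and 139 CPM in the G1-1 controls. With G3-1, Txnip was at 214, 165 and 162 CPM at overload and 249, 220.4 and 224 CPM in controls. With Bayertitan, Txnip was at 185, 213 and 192 CPM at overload and 179, 182 and 173 CPM in controls. The G1-1 overload libraries were the 3 lowest of the 18. The difference was -1.54 ± 0.21 (adjusted p = 0.000159), and it passed against G3-1 alone (-1.29, adjusted p = 0.0167) and Bayertitan alone (-1.79, adjusted p = 0.000165). Arrdc4, a related arrestin regulated in the same way, had a difference of -0.60 ± 0.18 and missed the threshold (adjusted p = 0.059). Txnip was the member that passed among 7 tested glucose-sensing genes.

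Of 24 tested hypoxia-inducible factor genes and targets, 5 passed higher and 0 lower (median 0.20): Egln3, Kdm3a, Ero1a, Epas1 and Bhlhe40. Overload with single particles raised 11 of them with G1-1, 5 with G3-1 and 3 with Bayertitan, which also lowered 1. Among all tested genes overload raised 2.3%, 0.0897% and 5.74%, in that order. Bayertitan overload lowered 4.1%, and the 1 lowered member is near that share. The difference of overload effects passed higher for 0.938% of all tested genes. Egln3, a prolyl hydroxylase that is itself induced by hypoxia-inducible factors, was at 23.5, 13.1 and 25.6 CPM in the G1-1 overload libraries, against 4.02, 4.11 and 5.89 CPM in the G1-1 controls. With G3-1, Egln3 was at 7.84, 7.16 and 7.43 CPM at overload and 5.36, 5.87 and 5.11 CPM in controls. With Bayertitan, Egln3 was at 3.28, 2.85 and 3.07 CPM at overload and 3.68, 4.79 and 5.27 CPM in controls. With G1-1 and G3-1 the overload libraries lay above their controls, and with Bayertitan below them. The difference was 2.21 ± 0.41 (adjusted p = 0.00313). Kdm3a, a histone demethylase that needs oxygen, was at 114, 111 and 120.2 CPM in the G1-1 overload libraries, against 66.5, 72 and 77.1 CPM in the G1-1 controls. With G3-1, Kdm3a was at 85.2, 92.3 and 85.1 CPM at overload and 72.6, 68.6 and 74.3 CPM in controls. With Bayertitan, Kdm3a was at 55.6, 53.9 and 59.9 CPM at overload and 59.5, 60.2 and 63.9 CPM in controls. Its G1-1 overload libraries were the highest, its G3-1 overload libraries lay above their controls, and with Bayertitan the ranges overlapped. The difference was 0.60 ± 0.082 (adjusted p = 0.000164). Ero1a, an oxidase of the endoplasmic reticulum, had overload effects of 0.82 with G1-1, 0.45 with G3-1 and 0.32 with Bayertitan, each past the test, and differed by 0.44 ± 0.10 (adjusted p = 0.0198). Adm, which encodes adrenomedullin, was at 32.3, 9.93 and 15.6 CPM in G1-1 overload libraries, against 3.33, 5.09 and 5.93 CPM in controls. Its difference of 1.45 ± 0.65 did not pass (adjusted p = 0.228), nor did that of Vegfa, 1.30 (adjusted p = 0.055). Hif1a differed by 0.046 (adjusted p = 0.808).

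With the epithelial covariate 3 of 25 glycolysis genes and 2 of 24 hypoxia genes passed, with medians of 0.16 and 0.29. Slc2a1, Hk2, Pfkfb3, Egln3, Kdm3a and Txnip stayed past the threshold in that fit, and in each fit that left out a single library. Without the libraries with Col3a1 none passed by edgeR, with 8 glycolysis and 10 hypoxia genes at an unadjusted p under 0.05, and the medians were 0.23 and 0.23. Against G3-1 alone 2 glycolysis genes passed. For hypoxia genes that count was 0 of 24 by edgeR, with 5 at an unadjusted p under 0.05 and 3 by DESeq2.

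The core letters of the hypoxia response element, ACGTG on either strand, stood in the promoter window of 16 of 24 glycolysis genes found in the table (66.7%) and of 11 of 21 hypoxia genes (52.4%), beside 5746 of 27457 genes (20.9%). The last share covers every gene of the promoter table, tested here or not, so it is not matched to the lists. Of the genes with a higher effect, 3 of 5 on the glycolysis list held it, namely Slc2a1, Pfkfb3 and Aldoa. On the hypoxia list 1 of the 4 found in the table did (25%), Bhlhe40, a share near that of all genes. Hk2, Gys1, Egln3, Kdm3a and Epas1 held none, and Ero1a was not in the table. The windows of Slc2a1 and Pfkfb3 are shown as those of the transporter and the regulatory enzyme that passed, with the matches in capitals; in Pfkfb3 2 overlapping matches on opposite strands form CACGTG, an E-box. The windows are Slc2a1, chr5:138002272-138002571, plus strand, and Pfkfb3, chr17:71944683-71944982, plus strand. The matches start 51 bases before the start site in Slc2a1 and 42 and 41 bases before it in Pfkfb3.
Slc2a1: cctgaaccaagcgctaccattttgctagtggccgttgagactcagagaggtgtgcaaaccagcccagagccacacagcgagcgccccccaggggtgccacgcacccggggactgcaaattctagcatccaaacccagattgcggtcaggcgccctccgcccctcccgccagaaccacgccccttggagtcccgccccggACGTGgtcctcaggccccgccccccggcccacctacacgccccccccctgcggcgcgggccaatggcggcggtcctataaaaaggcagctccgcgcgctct
Pfkfb3: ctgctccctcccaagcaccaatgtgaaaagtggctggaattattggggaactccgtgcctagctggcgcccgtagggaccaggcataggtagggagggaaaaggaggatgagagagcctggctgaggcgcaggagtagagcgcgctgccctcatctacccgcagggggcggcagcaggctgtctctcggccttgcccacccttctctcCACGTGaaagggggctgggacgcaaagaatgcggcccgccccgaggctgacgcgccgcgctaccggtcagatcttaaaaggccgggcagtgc

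**Figure D4:**
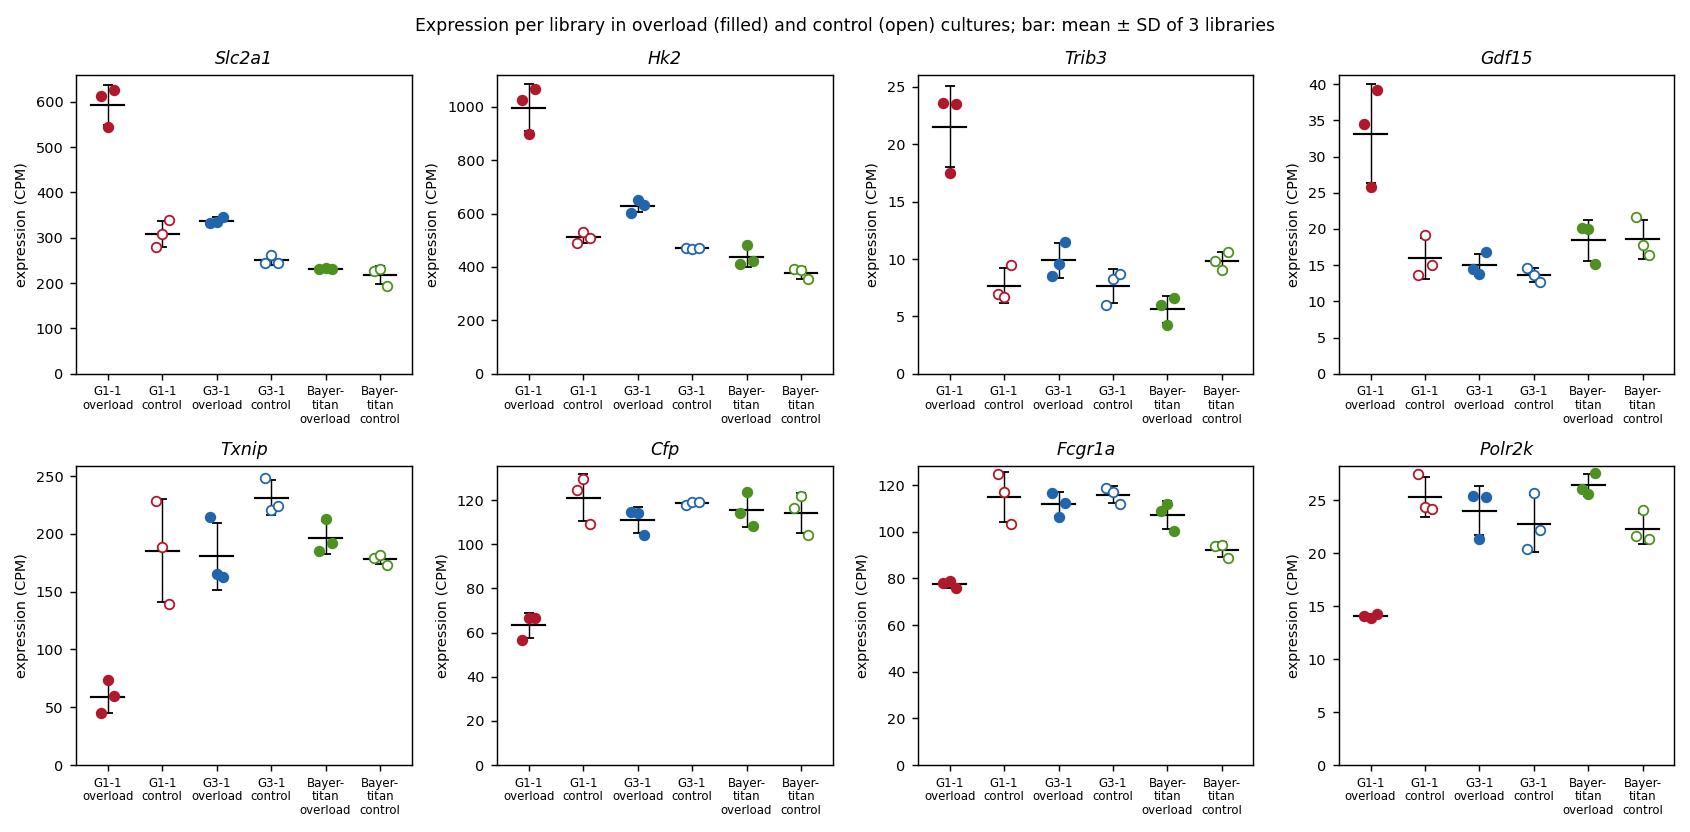
Expression (CPM) in each of the 18 libraries for 4 genes with a higher and 4 with a lower overload effect of G1-1, with filled points for overload, open points for control, and the mean ± SD of 3 libraries. G1-1 overload libraries stand above the other 15 for Slc2a1, Hk2, Trib3 and Gdf15 and below them for Txnip, Cfp, Fcgr1a and Polr2k.

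Complement genes had a lower overload effect with G1-1 than with the others on average. Of 17 tested, 8 passed with a lower effect and 1, the decay-accelerating factor Cd55, with a higher, and the median was -0.54. For the same difference 2.03% of all tested genes passed lower and 0.938% higher. Overload changed 0 upward and 6 downward with G1-1, and 2 upward and 1 downward with Bayertitan. Across all tested genes, G1-1 overload raised 2.3% and lowered 2.71%, and Bayertitan overload raised 5.74% and lowered 4.1%. With G3-1 the count was 0 of 17 by edgeR, with 1 at an unadjusted p under 0.05 and 0 by DESeq2. C1qc, a chain of the C1q recognition molecule, was at 3.86, 5.07 and 4.74 CPM in the G1-1 overload libraries, against 10.6, 13 and 10.4 CPM in the G1-1 controls. With G3-1, C1qc was at 19.7, 19.1 and 21.6 CPM at overload and 19.9, 21.4 and 25.4 CPM in controls. With Bayertitan, C1qc was at 27.1, 24.5 and 23 CPM at overload and 21.5, 27.6 and 25.1 CPM in controls. The G1-1 overload libraries were the lowest of the 18, and the G1-1 controls lay below every G3-1 and Bayertitan library. The difference of overload effects was -1.25 ± 0.23 (adjusted p = 0.00273), and the G1-1 controls were -1.05 apart from the other controls (adjusted p = 0.000464). The chains C1qa and C1qb differed by -0.79 ± 0.21 (adjusted p = 0.0392) and by -0.79 (adjusted p = 0.0395). C1qa passed in 9 of the 31 other fits.

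Cfp, properdin, which stabilises the alternative pathway convertase, was at 56.7, 66.6 and 66.7 CPM in the G1-1 overload libraries, against 125, 129.6 and 109 CPM in the G1-1 controls. With G3-1, Cfp was at 115, 114 and 104 CPM at overload and 118, 119 and 119 CPM in controls. With Bayertitan, Cfp was at 114, 124 and 108 CPM at overload and 116, 122 and 104 CPM in controls. Here the controls of the 3 particles overlapped and the G1-1 overload libraries stood below all other libraries. The difference was -0.90 ± 0.13 (adjusted p = 0.000178), and it passed against G3-1 alone (-0.84, adjusted p = 0.00783). Cfd, the protease factor D of the same pathway, averaged 31.3 ± 1.72 CPM at G1-1 overload and 55.5 ± 5.5 CPM in controls and differed by -0.66 ± 0.13 (adjusted p = 0.00538). The receptor C3ar1 differed by -1.10 (adjusted p = 0.0102) and the inhibitor Cd59 by -0.31 (adjusted p = 0.0471). C3, the central component, differed by 0.45 and did not pass (adjusted p = 0.333).

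Class II genes, which serve antigen presentation, also had a lower effect. Of 10 tested members 5 passed lower and 0 higher (median -0.70): RT1.Bb, RT1.Db1, RT1.Da, RT1.Ba and the invariant chain Cd74. The share of all tested genes that passed lower was 2.03%. Overload with G1-1 lowered 5 of the 10, beside 2.71% of all tested genes. With Bayertitan the count changed was 0 of 10 by edgeR, with 1 at an unadjusted p under 0.05 and 0 by DESeq2. With G3-1 it was 0 of 10 by edgeR, with 2 at an unadjusted p under 0.05 and 0 by DESeq2. RT1.Da, an alpha chain of a class II molecule, was at 30.7, 35.8 and 33.2 CPM in the G1-1 overload libraries, against 61.1, 58.2 and 55.3 CPM in the G1-1 controls. With G3-1, RT1.Da was at 79.7, 74.3 and 78.5 CPM at overload and 88.4, 81.2 and 91.3 CPM in controls. With Bayertitan, RT1.Da was at 97.6, 91.7 and 79.2 CPM at overload and 93.9, 98.1 and 84.4 CPM in controls. The G1-1 overload libraries were the 3 lowest, and the G1-1 controls were the next lowest. The difference was -0.71 ± 0.16 (adjusted p = 0.0153), and the G1-1 controls differed from the other controls by -0.62 (adjusted p = 0.00404). RT1.Bb differed by -0.79 ± 0.17 (adjusted p = 0.01), RT1.Ba by -0.70 ± 0.18 (adjusted p = 0.0287) and Cd74 by -0.55 ± 0.15 (adjusted p = 0.0346). RT1.Ba passed in 17 and Cd74 in 11 of the 31 other fits. They passed in 7 and 3 of the 18 fits that left out a single library. Against G3-1 alone the difference did not pass for RT1.Bb, RT1.Da, RT1.Ba or Cd74 (adjusted p = 0.149 to 0.269). Ciita, the transactivator of class II genes, had a difference of -0.39 that did not pass (adjusted p = 0.346). Estimated counts share reads among near-identical copies, so RT1 values are uncertain.

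Markers of monocytes and recruited macrophages, a list that also holds the C1q chains, had 6 of 12 tested members lower and 0 higher (median -0.72). Besides C1qa, C1qb and C1qc these were Cx3cr1, Stab1 and Ms4a7. Over all tested genes 2.03% passed lower. Cx3cr1, the fractalkine receptor, was low throughout, at 0.17, 0.074 and 0.119 CPM in G1-1 overload libraries, against 0.796, 0.674 and 0.921 CPM in G1-1 controls. Its highest value among the 12 G3-1 and Bayertitan libraries was 1.89 CPM, and the difference was -2.46 ± 0.46 (adjusted p = 0.00348). Stab1, a scavenger receptor, averaged 10.6 ± 0.499 CPM at G1-1 overload and 23.3 ± 6.24 CPM in controls, and 64.1 ± 11.7 CPM at Bayertitan overload and 49.2 ± 9.88 CPM in controls. It differed by -1.40 ± 0.31 (adjusted p = 0.011), with G1-1 controls -1.16 from the other controls (adjusted p = 0.00497).

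With the epithelial covariate 3 complement genes, 0 class II genes and 3 monocyte and recruited macrophage markers passed, with medians of -0.25, -0.63 and -0.40. At an unadjusted p under 0.05 there were 5 class II genes in that fit. Without the libraries with Col3a1 none passed by edgeR, with 9, 5 and 7 at an unadjusted p under 0.05 and medians of -0.29, -0.63 and -0.59. C1qc, Cfp and Cx3cr1 passed in each fit that left out a single library and in the epithelial fit.

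Some uptake receptors had a lower effect. Of 16 tested scavenger receptor and phagocytosis genes 4 passed lower and 0 higher (median -0.20), namely Cd5l, Stab1, Fcgr1a and Axl. The same test called 2.03% of all tested genes lower. Fcgr1a, the high-affinity receptor for immunoglobulin G, was at 77.8, 79 and 75.9 CPM in the G1-1 overload libraries, against 125, 117 and 103 CPM in the G1-1 controls. With G3-1, Fcgr1a was at 117, 106 and 112 CPM at overload and 119, 117 and 112 CPM in controls. With Bayertitan, Fcgr1a was at 109, 112 and 100.5 CPM at overload and 93.9, 94.5 and 88.7 CPM in controls. The G1-1 overload libraries were the 3 lowest, and Bayertitan overload libraries were above their controls. The difference was -0.65 ± 0.12 (adjusted p = 0.00263). Cd5l, a secreted scavenger protein of tissue macrophages, averaged 41.9 ± 8.91 CPM at G1-1 overload and 90.2 ± 35.8 CPM in controls, and 146 ± 32.9 CPM at Bayertitan overload and 81.4 ± 13.3 CPM in controls, a difference of -1.62 ± 0.34 (adjusted p = 0.0083). Axl, a receptor for apoptotic cells, differed by -0.22 (adjusted p = 0.0283). Msr1 and Scarb1, the class A and class B scavenger receptors, differed by -0.13 and -0.028 and did not pass (adjusted p = 0.491 and 0.962). In the fit with the epithelial covariate 1 of these genes passed. Against G3-1 alone Cd5l, Stab1 and Fcgr1a did not pass (adjusted p = 0.175, 0.133 and 0.113).

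Among 10 leukotriene and prostaglandin genes 2 passed lower and 0 higher (median -0.41), beside 2.03% lower over all tested genes. Alox5, the lipoxygenase that starts leukotriene synthesis, averaged 10.2 ± 0.831 CPM at G1-1 overload and 16.3 ± 1.73 CPM in controls, against 13.6 ± 2.13 CPM and 14.1 ± 1.09 CPM with G3-1 and 12.5 ± 0.975 CPM and 11.7 ± 1.16 CPM with Bayertitan. Its difference was -0.70 ± 0.15 (adjusted p = 0.00998). Alox15, which oxidises arachidonic acid at another carbon, had effects of -0.72 with G1-1, 0.0021 with G3-1 and 0.51 with Bayertitan and differed by -0.98 ± 0.19 (adjusted p = 0.0051). With the epithelial covariate 1 gene of the list passed, and Alox5 did at -0.80 (adjusted p = 0.00985).

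The alveolar macrophage markers Lyz2 and Fabp4 were the 2 of 10 tested that passed, both lower. Of all tested genes 2.03% passed lower and 0.938% higher. Lyz2, a lysozyme, was at 10060, 11210 and 11500 CPM in G1-1 overload libraries, against 16440, 14690 and 12320 CPM in G1-1 controls. The G1-1 overload libraries overlapped the Bayertitan controls, at 11700, 12550 and 11380 CPM. Overload effects on Lyz2 were -0.41 with G1-1, 0.011 with G3-1 and 0.32 with Bayertitan, a difference of -0.57 ± 0.14 (adjusted p = 0.026). Fabp4, a fatty acid carrier, averaged 774 ± 82.7 CPM at G1-1 overload and 1026 ± 223 CPM in controls, with effects of -0.41 with G1-1, 0.19 with G3-1 and 0.72 with Bayertitan and a difference of -0.86 ± 0.19 (adjusted p = 0.0112). The Bayertitan effect on Fabp4 was itself past the test (adjusted p = 0.0192) and the G1-1 effect was not (adjusted p = 0.14). Cd68 and Pparg, the lineage regulator of alveolar macrophages, differed by -0.017 and 0.0095 (adjusted p = 0.968 and 0.988). Of 24 lineage transcription factors 3 passed higher, Bach2, Bhlhe40 and Klf6, and 1 lower, Tfec. The 1 lower is near the 2.03% of all tested genes. Klf6 differed by 0.26 ± 0.062 (adjusted p = 0.022) and Tfec by -0.56 ± 0.14 (adjusted p = 0.0287). Bach2, a repressor, was at most 1.48 CPM in any of the 18 libraries and differed by 2.48 ± 0.56 (adjusted p = 0.014). Ctsc, the lysosomal protease that activates granule proteases, averaged 95.2 ± 4.56 CPM at G1-1 overload and 145 ± 21.8 CPM in controls and differed by -0.59 ± 0.11 (adjusted p = 0.00278). Epithelial markers moved with the comparison, as given above. With their mean as a covariate the count for alveolar macrophage markers was 0 of 10 by edgeR, with 2 at an unadjusted p under 0.05, with Lyz2 at -0.33 (adjusted p = 0.252) and Fabp4 at -0.54 (adjusted p = 0.133). For the lineage transcription factors it was 0 of 24 by edgeR, with 4 at an unadjusted p under 0.05, with Bach2 at 1.90 (adjusted p = 0.132), Klf6 at 0.26 (adjusted p = 0.0743) and Tfec at -0.39 (adjusted p = 0.246). Ctsc still passed, at -0.38 (adjusted p = 0.0217).

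Of 32 fibrosis and remodelling mediators 4 passed higher and 0 lower (median 0.22): Tgm2, Arg1, Plau and Chi3l1. The share higher over all tested genes was 0.938%. Overload raised 10 of the list with G1-1 and 7 with Bayertitan, which also lowered 2. Beside these, G1-1 overload raised 2.3% of all tested genes, and Bayertitan overload raised 5.74% and lowered 4.1%. With G3-1 the count was 0 of 32 by edgeR, with 7 at an unadjusted p under 0.05 and 0 by DESeq2. Tgm2, a cross-linking transglutaminase, was at 862, 969 and 1059 CPM in G1-1 overload libraries, against 488, 621 and 610.5 CPM in G1-1 controls. Its difference was 0.57 ± 0.14 (adjusted p = 0.0283), and its G1-1 controls were 0.50 higher than the other controls (adjusted p = 0.00763). Arg1, arginase, averaged 218 ± 15.8 CPM at G1-1 overload and 152 ± 20.4 CPM in controls and differed by 0.49 ± 0.13 (adjusted p = 0.0297). Plau, the urokinase plasminogen activator, differed by 0.27 ± 0.07 (adjusted p = 0.0289), and Chi3l1, a chitinase-like protein, by 2.52 (adjusted p = 0.0499). Spp1 (osteopontin), Fn1 (fibronectin) and Tgfb1 differed by -0.33, 0.39 and -0.066 and did not pass (adjusted p = 0.199, 0.319 and 0.79). With the epithelial covariate 0 members passed by edgeR, with 7 at an unadjusted p under 0.05.

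Of 31 cytokines and chemokines 1 passed, Cxcl2, a neutrophil attractant, a share near the 2.97% of all tested genes. It was at 29.8, 23.8 and 24.6 CPM in G1-1 overload libraries, against 14, 18.8 and 18.1 CPM in G1-1 controls. With G3-1, Cxcl2 was at 13.9, 8.6 and 8.46 CPM at overload and 14.1, 16.2 and 15.3 CPM in controls. The difference was 0.73 ± 0.20 (adjusted p = 0.0449) on the log2 scale, and it passed in 11 of the 31 other fits and in 6 of the 18 without 1 library. It was lost under both replicate blocks and with the epithelial covariate, at 0.52 (adjusted p = 0.3). It was 1.17 (adjusted p = 0.03) against G3-1 alone and 0.28 (adjusted p = 0.506) against Bayertitan alone. Il1b had a difference of -0.72 ± 0.29 and did not pass (adjusted p = 0.187). Lcn2, an iron-binding antimicrobial protein, averaged 17.6 ± 2.83 CPM at G1-1 overload and 3.61 ± 1.7 CPM in controls and differed by 2.39 ± 0.58 (adjusted p = 0.0223), a call lost with the epithelial covariate (1.5, adjusted p = 0.15). Nos2, the inducible nitric oxide synthase, was at 6.64, 4.27 and 7.24 CPM in G1-1 overload libraries, against 0.362, 1.07 and 1.87 CPM in controls, a difference of 1.26 ± 0.83 that did not pass (adjusted p = 0.432). Pim1, a kinase induced by cytokines, was at 44, 40.1 and 46.2 CPM in the G1-1 overload libraries, against 14.9, 20.9 and 21.1 CPM in the G1-1 controls. With G3-1, Pim1 was at 20.4, 18.9 and 19.3 CPM at overload and 14.4, 17.5 and 15.2 CPM in controls. With Bayertitan, Pim1 was at 19.3, 22.5 and 19 CPM at overload and 21.4, 18.2 and 18.2 CPM in controls. Its G1-1 overload libraries were above all others. The difference was 1.00 ± 0.15 (adjusted p = 0.000339), and it passed against G3-1 alone (0.88, adjusted p = 0.0255) and Bayertitan alone (1.12, adjusted p = 0.000576).

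Several lists of genes that particle uptake is known to engage had 0 to 2 members past the test for the difference, and are read beside the 2.97% called over all tested genes. Most of these counts are near that share, so they say nothing particular to the lists. For NRF2 and antioxidant genes the count was 0 higher and 1 lower of 23, the lower member being Gclc, the catalytic subunit for glutathione synthesis, with -0.49 ± 0.12 (adjusted p = 0.0285). Hmox1 and Nqo1 differed by -0.043 ± 0.11 (adjusted p = 0.883) and -0.59 ± 0.20 (adjusted p = 0.115). For lysosomal genes it was 0 higher and 1 lower of 31, the member being Ctsc, although overload with Bayertitan raised 15 of them and overload with G1-1 raised 2. For proton pump and TFEB-family genes no member passed by edgeR (26 tested, 3 at an unadjusted p under 0.05, 1 by DESeq2). For lipid-associated macrophage genes it was 0 higher and 1 lower of 19, with Bayertitan overload raising 17 and G1-1 overload 3. Bayertitan overload raised 5.74% of all tested genes and G1-1 overload 2.3%. Overload with Bayertitan, with the epithelial covariate, changed 0 of the 14498 genes by edgeR, with 1685 at an unadjusted p under 0.05. Gpnmb, an abundant gene of that list, differed by -0.062 ± 0.12 (adjusted p = 0.845). Type I interferon-stimulated genes had 0 higher and 1 lower of 26, p53 targets 1 higher and 0 lower of 18 and heat shock genes 1 higher and 0 lower of 15, there Hspa1b with 1.02 ± 0.25 (adjusted p = 0.0242). Cdkn1a, a p53 target, differed by 0.27 ± 0.14 (adjusted p = 0.278) and Mt1, a metallothionein, by 0.46 ± 0.22 (adjusted p = 0.25). Nuclear genes of the respiratory chain had 0 higher and 2 lower of 27, Ndufa2 (-0.37, adjusted p = 0.033) and Cox6c (-0.30, adjusted p = 0.0383). They passed in 14 and 12 of the 31 other fits, and not with the epithelial covariate (adjusted p = 0.203 and 0.275). On Cox6c the G1-1 effect did not itself pass (adjusted p = 0.197), and the rise with Bayertitan did (adjusted p = 0.0363).

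The other lists are given by their counts for the difference of overload effects. NF-kB subunits and feedback genes had 0 higher and 1 lower of 20 (Tnip3), antimicrobial and nitric oxide genes 1 higher and 1 lower of 15 (Lcn2 and Lyz2), and aryl hydrocarbon receptor targets 1 higher and 0 lower of 11 (Tiparp). No member passed by edgeR among 20 endoplasmic reticulum chaperones, 14 genes of class I antigen processing, 24 autophagy genes and 26 genes of sterol synthesis and efflux. Nor did any among 26 genes of fatty acid metabolism, 19 genes of metal and iron handling, 29 cell cycle genes and 13 mitochondrially encoded respiratory chain genes. At an unadjusted p under 0.05 these 8 lists had 5, 8, 4, 3, 5, 5, 2 and 1 members, in the order given, and DESeq2 called 1 gene each of class I antigen processing and fatty acid metabolism. Of all tested genes 2672 of 14498 were at that unadjusted p, and most of these list counts are near or below that share. Of markers of further cell types, 7 specialised epithelial, 4 endothelial, 3 neutrophil, 3 lymphocyte and 2 erythroid genes were tested and none passed by edgeR or DESeq2, with 1 specialised epithelial and 1 neutrophil gene at an unadjusted p under 0.05. Of 4 dendritic cell markers Cd1d1 passed, lower, and none of the eosinophil and mast cell markers was expressed enough to be tested.

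The smallest p-value of all belonged to Polr2k, which encodes a small zinc-binding subunit shared by the RNA polymerases. Polr2k was at 14.1, 13.9 and 14.2 CPM in the G1-1 overload libraries, against 27.5, 24.4 and 24.2 CPM in the G1-1 controls. With G3-1, Polr2k was at 25.4, 21.4 and 25.4 CPM at overload and 20.4, 25.7 and 22.2 CPM in controls. With Bayertitan, Polr2k was at 26.1, 25.6 and 27.6 CPM at overload and 21.6, 24.1 and 21.4 CPM in controls. The 3 G1-1 overload libraries lay within a narrow range below all other libraries, whose groups overlapped between particles. The difference was -1.01 ± 0.10 (adjusted p = 5.33e-06), and it passed against G3-1 alone (-0.93, adjusted p = 0.000244) and Bayertitan alone (-1.09, adjusted p = 1.96e-05). Rbis, a ribosome biogenesis factor, was at 18.5, 19 and 17.6 CPM in the G1-1 overload libraries, against 29.5, 26.9 and 26.6 CPM in the G1-1 controls. With G3-1, Rbis was at 30.2, 27.2 and 27.2 CPM at overload and 25.6, 27 and 27.2 CPM in controls. With Bayertitan, Rbis was at 26, 28.3 and 27 CPM at overload and 26.7, 29.4 and 28.4 CPM in controls. Here too the G1-1 overload libraries lay below all others. The difference was -0.60 ± 0.072 (adjusted p = 4.26e-05). Tbca, a chaperone for tubulin folding, differed by -0.49 ± 0.064 (adjusted p = 0.000112), and Tceal8 by -0.75 ± 0.10 (adjusted p = 0.000168). Fcrl2, a receptor of the Fc receptor-like family, was at 2.61, 2.55 and 2.65 CPM in the G1-1 overload libraries, against 14.8, 11.9 and 8.68 CPM in the G1-1 controls. With G3-1, Fcrl2 was at 14.2, 14.4 and 17.8 CPM at overload and 11.7, 13.5 and 16.9 CPM in controls. With Bayertitan, Fcrl2 was at 20, 19.1 and 11.7 CPM at overload and 13, 14.2 and 10.4 CPM in controls. The G1-1 overload libraries lay below all others, which overlapped. The difference, the lowest among named genes, was -2.46 ± 0.31 (adjusted p = 6.48e-05). On the higher side Irs2, an insulin receptor adaptor, was at 124, 117 and 136 CPM in the G1-1 overload libraries, against 77.5, 77.8 and 81.9 CPM in the G1-1 controls. With G3-1, Irs2 was at 89.1, 81 and 84.7 CPM at overload and 87.7, 80.8 and 74.7 CPM in controls. With Bayertitan, Irs2 was at 82, 93.7 and 82.4 CPM at overload and 89.1, 82.1 and 75.4 CPM in controls. Its G1-1 overload libraries exceeded all others, and overload and control overlapped with G3-1 and with Bayertitan. The difference was 0.60 ± 0.086 (adjusted p = 0.000221), with 0.60 against G3-1 and 0.60 against Bayertitan. Tiparp, an aryl hydrocarbon receptor target, differed by 0.63 ± 0.12 (adjusted p = 0.0041) and Marchf7, a ubiquitin ligase, by 0.48 ± 0.071 (adjusted p = 0.000367).

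Several of the largest differences belonged to genes of low expression. Ptprb, a receptor tyrosine phosphatase known from blood vessels, was at 16, 10.6 and 6.8 CPM in G1-1 overload libraries, against 2.71, 8.02 and 5.46 CPM in G1-1 controls. Its difference was 2.56 ± 0.69 (adjusted p = 0.0395), while its G1-1 overload and control values overlapped and its overload effects were 1.04 with G1-1, -1.45 with G3-1 and -1.57 with Bayertitan. Igfbp3, a binding protein for insulin-like growth factors, was at 8.3, 2.77 and 6.13 CPM in G1-1 overload libraries, against 1.67, 1.96 and 3.07 CPM in controls, also with overlap, and differed by 2.41 ± 0.59 (adjusted p = 0.0229). Adm2, a peptide hormone of the adrenomedullin family, averaged 5.62 ± 1.34 CPM at G1-1 overload and 2.66 ± 1.01 CPM in controls and differed by 1.90 ± 0.44 (adjusted p = 0.0159). On the lower side Gpr34, a lysophosphatidylserine receptor of macrophages and microglia, averaged 11 ± 2.63 CPM at G1-1 overload and 20.4 ± 6.52 CPM in controls, and 23.7 ± 6.11 CPM at Bayertitan overload and 14.4 ± 0.396 CPM in controls. Its difference was -1.34 ± 0.30 (adjusted p = 0.0145). Kazald1, a secreted protein with a Kazal domain, differed by -1.36 ± 0.28 (adjusted p = 0.00851). Smaller differences, in genes at higher levels than Ptprb, Igfbp3 and Adm2, passed as well. The lipid-presenting molecule Cd1d1 differed by -0.58 ± 0.15 (adjusted p = 0.0346), the interferon-induced GTPase Ifi47 by -0.58 ± 0.16 (adjusted p = 0.0489) and Tnip3, a partner of the NF-kB inhibitor A20, by -0.49 ± 0.14 (adjusted p = 0.0447). Several of these calls were lost in many fits: Ptprb passed in 11 of the 31 other fits, Cd1d1 in 13, Tnip3 in 10 and Ifi47 in 7, and Ifi47 and Tnip3 were lost with RLE size factors. None of the 8 genes from Ptprb to Tnip3 passed edgeR's test with the epithelial covariate (adjusted p = 0.0843 to 0.342). For Ptprb the contrast with Bayertitan alone did not pass (adjusted p = 0.0548), and for none of these genes did the contrast with G3-1 alone (adjusted p = 0.0744 to 0.496).

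Of the 60 named genes that passed, the 28 with a higher effect included 26 for which all 3 G1-1 overload libraries lay above all 3 G1-1 controls, where 11% of the tested genes did. For the other particles 9 of the 28 lay above with G3-1 (5.67% of tested genes) and 6 with Bayertitan (16.8%), while 5 lay below with G3-1 (9.02%) and 11 with Bayertitan (14.2%). Of the 32 with a lower effect, 28 lay below with G1-1 (13.2% of tested genes), 5 with G3-1 and 0 with Bayertitan, where 13 lay above. The genes were chosen by a contrast of these same libraries, so nothing is read from these counts. Of the 60, 24 passed in every other fit tried except that without the Col3a1 libraries, 12 higher and 12 lower, and all 60 kept their sign in the 31 fits. Those fits reuse the same libraries, so the kept signs test nothing. Of the 60, 26 passed with the epithelial covariate, 14 higher and 12 lower.

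**Figure D5:**
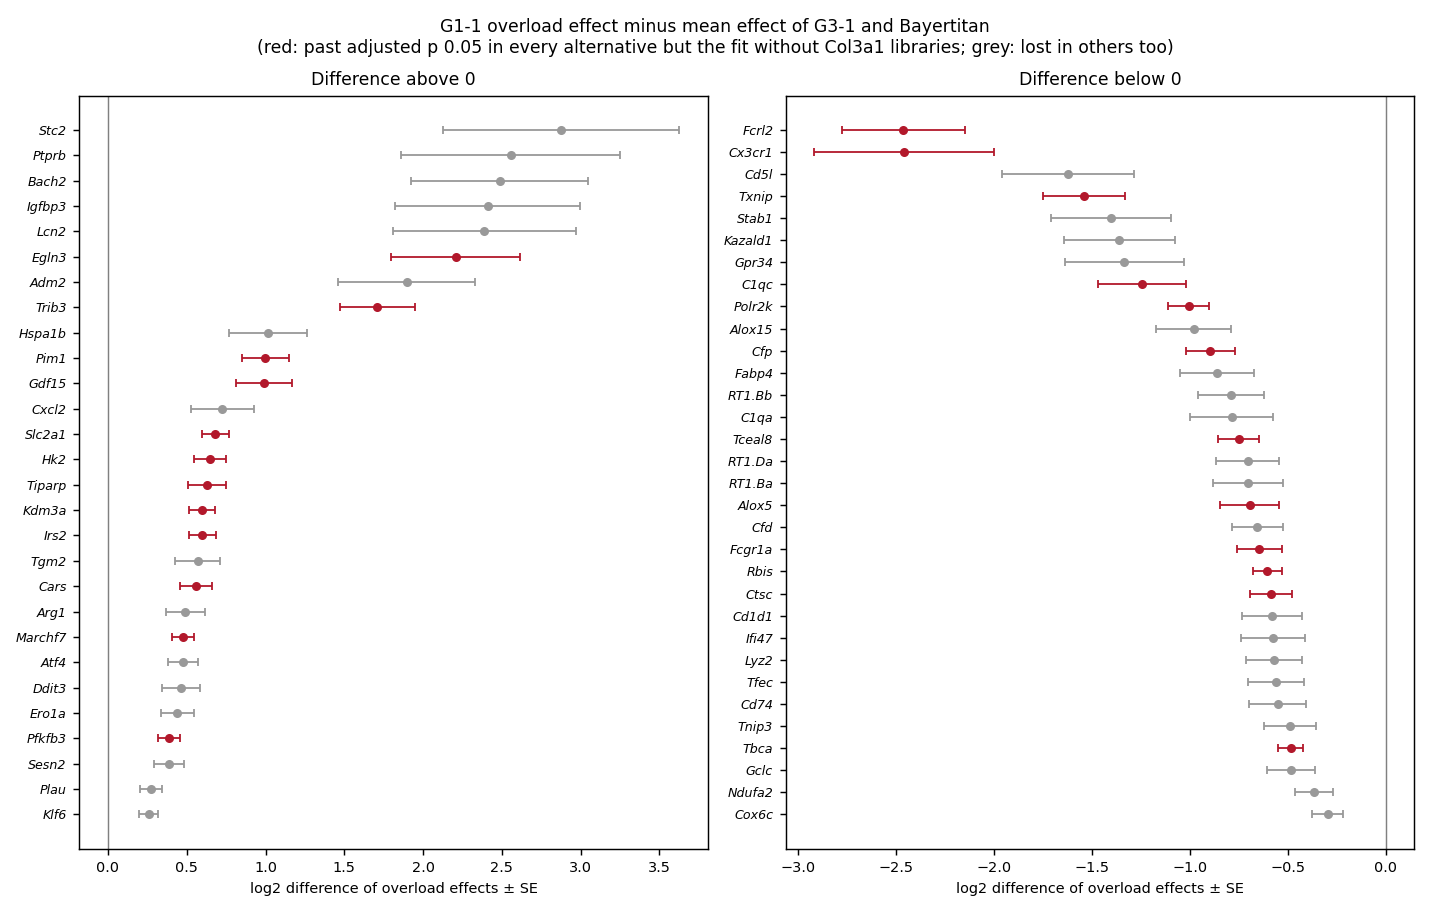
Difference of overload effects (log2, ± SE) for the 60 named genes that passed, higher on the left and lower on the right. Red marks the 24 that passed in every other fit but that without the Col3a1 libraries, and the ends are Stc2 at 2.88 and Fcrl2 at -2.46.

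Controls and the non-overload condition give the level from which these differences start. The G1-1 controls differed from the mean of the other particles' controls for 175 genes (142 higher and 33 lower, 1.21% of those tested, or 0.979% and 0.228%). Among named genes these held Slc2a1, Pfkfb3, Hk2, Ero1a, Tgm2, Arg1, C1qc, C1qa, Stab1, RT1.Bb, RT1.Da and RT1.Ba, each in the direction of its difference of overload effects, and Mt1 and Nqo1, whose difference did not pass. At overload, G1-1 levels differed from the others for 2633 genes (1366 higher and 1267 lower, 18.2%, or 9.42% and 8.74%). For the non-overload condition, the difference of effects between G1-1 and the other particles passed for 0 genes by edgeR, with 355 at an unadjusted p under 0.05 and 2 by DESeq2. The step between non-overload and overload differed for 56 genes (11 higher and 45 lower, 0.386%, or 0.0759% and 0.31%), Slc2a1 (0.49, adjusted p = 0.00732), Hk2 (0.44, adjusted p = 0.0473), Txnip (-1.20, adjusted p = 0.00732) and Cfp (-0.81, adjusted p = 0.00271) among them. Slc2a1 was at 397, 435 and 416 CPM in G1-1 non-overload libraries, between its controls and its overload libraries. Txnip was there at 150.5, 118 and 139 CPM and Cfp at 116, 124 and 116 CPM, Cfp being within the range of the controls.

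Printex90, the carbon black, does not enter the difference, and its overload effects on the same genes are given beside it. Over all genes Printex90 overload raised 5.15% and lowered 2.84% past edgeR's test, 7.99% in all. The count was 1158 genes, against 487 with the epithelial covariate and 48 without the libraries with Col3a1. Of the 28 named genes with a higher effect of G1-1 it raised 7 and lowered 2, and 19 did not pass. The genes it raised were Slc2a1, Irs2, Tgm2, Ddit3, Ero1a, Pfkfb3 and Klf6, and those it lowered Cxcl2 and Tiparp. Its effect on Slc2a1 was 0.26 (adjusted p = 0.0257) and on Pfkfb3 0.29 (adjusted p = 0.003), beside G1-1 effects of 0.94 and 0.64, a contrast that was not tested. Among the stress response genes it was 0.41 (adjusted p = 0.0116) on Ddit3, while Trib3, Atf4 and Gdf15 had 0.23, -0.051 and 0.21 and did not pass (adjusted p = 0.506, 0.735 and 0.383). On Tiparp and Cxcl2 it was -0.80 (adjusted p = 1.32e-05) and -0.78 (adjusted p = 0.00461). Of the 32 named genes with a lower effect of G1-1, Printex90 overload lowered 13 and raised 1, and 18 did not pass. The 13 were Stab1, Cx3cr1, C1qc, Alox5, RT1.Bb, RT1.Da, Cd74, C1qa, RT1.Ba, Ifi47, Cfp, Cfd and Ctsc, with effects from -2.48 for Stab1 to -0.40 for Ctsc. The gene it raised was Fabp4, with 0.72 (adjusted p = 0.00537). Polr2k, Rbis and Fcrl2 had Printex90 effects of -0.025, -0.014 and -0.17 (adjusted p = 0.888, 0.911 and 0.717).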

How the data were processed

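RNA was sequenced from 36 cultures of rat alveolar macrophages, 3 in each of 12 groups. Per the labels' protocols, 150 ng of total RNA was depleted of ribosomal RNA for the libraries. The submitters' processing notes name Salmon, FastQC, MultiQC and the build Rnor_6.0. The versions, the annotation and the step to genes are not given in the sources used here. The authors deposited estimated counts per gene for 23487 symbols, not scaled to library size (47.7% of the values are not whole). Estimated counts split reads among near-identical copies by a model, and counting by strand is not stated, so RT1 genes and overlapping genes are uncertain.

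Counts were rounded, filtered with filterByExpr by group (14498 genes left) and scaled by TMM; CPM uses those library sizes. All 36 libraries entered a single edgeR 4.0.16 quasi-likelihood model (limma 3.58.1, R 4.3.3) with 12 group means, which left 24 residual degrees of freedom. Benjamini-Hochberg adjustment covered every tested gene, with a threshold of 0.05. The standard error is the log2 difference divided by the root of the F statistic. Errors of CPM are SDs of 3 libraries. Marker means used log2(CPM + 1) and were tested by enumerating all 8000 relabelings of overload and control within the particles. The null of that test is no overload effect with any particle. Alternatives were DESeq2 1.42.0, limma-voom, RLE factors, other filters (none, or 1 CPM in 3 libraries), other sets of libraries, replicate blocks, marker covariates and leaving out each library. The alternatives for the effects of single particles and for the list counts were added after the data were seen. The model was checked on simulated counts with group differences removed and known changes set in the G1-1 overload libraries alone. These counts held no shift in cell markers, so the check says nothing about such shifts. Within groups the chi-square per gene between libraries was 7.62 to 45.8, so none counts as a duplicate.

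The comparison, the 41 gene lists (784 listings, 746 in the table) and the naming rule were chosen with earlier results of these data known. The rule took, among genes past the threshold that averaged 5 CPM or more in some group and mark no other cell type, the 6 largest rises and falls and the 6 smallest p-values per direction. It added up to 3 members that passed from each list, and a fixed set whether past the threshold or not. It gave 69 genes. Other list members and the promoters printed were picked after their values were seen, to show a list's range of roles. Promoter sequences are RefSeq's on GRCr8, which is not the build of the counts.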

Additional observations from a re-analysis of the deposited data

Results flagged for a closer look

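Each value here is a log2 difference of overload effects, G1-1 minus the mean of G3-1 and Bayertitan, and stands here because the test of that difference itself passed (edgeR, adjusted p under 0.05). This held for 431 genes against the mean of both particles, 31 against G3-1 alone, 703 against Bayertitan alone, and 56 for the step between non-overload and overload. Among named genes with a higher effect of G1-1, the largest differences were those of Stc2 (2.88), Ptprb (2.56), Bach2 (2.48), Igfbp3 (2.41), Lcn2 (2.39), Egln3 (2.21), Adm2 (1.90) and Trib3 (1.71). Those next in size were of Hspa1b (1.02), Pim1 (1.00), Gdf15 (0.99), Cxcl2 (0.73), Slc2a1 (0.68), Hk2 (0.65), Tiparp (0.63), Kdm3a (0.60) and Irs2 (0.60). The smallest were Tgm2 (0.57), Cars (0.56), Arg1 (0.49), Marchf7 (0.48), Atf4 (0.47), Ddit3 (0.46), Ero1a (0.44), Pfkfb3 (0.39), Sesn2 (0.39), Plau (0.27) and Klf6 (0.26). Among named genes with a lower effect, the largest falls were those of Fcrl2 (-2.46), Cx3cr1 (-2.46), Cd5l (-1.62), Txnip (-1.54), Stab1 (-1.40), Kazald1 (-1.36), Gpr34 (-1.34), C1qc (-1.25) and Polr2k (-1.01). Those next in size were Alox15 (-0.98), Cfp (-0.90), Fabp4 (-0.86), RT1.Bb (-0.79), C1qa (-0.79), Tceal8 (-0.75), RT1.Da (-0.71), RT1.Ba (-0.70), Alox5 (-0.70), Cfd (-0.66), Fcgr1a (-0.65) and Rbis (-0.60). The remaining ones were Ctsc (-0.59), Cd1d1 (-0.58), Ifi47 (-0.58), Lyz2 (-0.57), Tfec (-0.56), Cd74 (-0.55), Tnip3 (-0.49), Tbca (-0.49), Gclc (-0.49), Ndufa2 (-0.37) and Cox6c (-0.30). Bach2 and Cx3cr1 rest on levels no higher than 1.89 CPM in the 18 libraries.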

How the results depend on the processing

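Every one of the 431 genes had the main direction in all 31 alternative fits. Those fits reuse libraries by which the genes were chosen, so the kept directions test nothing. The counts moved. The 431 became 382 with RLE factors, 311 without a filter, 435 at 1 CPM in 3 libraries, 348 with the 18 libraries alone, 411 with the 27 titanium dioxide libraries, 428 with limma-voom, 632 with DESeq2, 601 with the fibroblast covariate, 537 with both covariates (210 shared with the main fit), 120 with the epithelial covariate and 0 without the libraries with Col3a1. Leaving out a library gave 112 to 639, with 112 without G1-1 control 1, 163 without G1-1 control 2, 146 without G1-1 overload 1, 166 without G1-1 overload 3, 267 without Bayertitan control 3 and 275 without Bayertitan overload 2. The replicate block gave 375 and a block within each particle 498. Neither the labels nor the values settle whether the replicate numbers pair the libraries, and the main fit does not pair them. Of 9 same-numbered pairs 5 correlated above 0.1 (r from -0.495 to 0.529), and 4 of 9 overload libraries correlated best with their own number.

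Other counts moved by over 1.5 times as follows. With DESeq2, G1-1 against G3-1 gave 124, against Bayertitan 1097, G3-1 against Bayertitan 6, control levels 308, non-overload effects 2, the step to overload 237 and the G3-1 effect 77. With the block within particle, G1-1 against G3-1 gave 19, control levels 71 and overload levels 1302. With the epithelial covariate, G1-1 against G3-1 gave 18, against Bayertitan 136, control levels 284, overload levels 1323, the step to overload 25, the G1-1 effect 1122 and the Bayertitan effect 0. With the fibroblast covariate, G1-1 against G3-1 gave 62, the step to overload 149 and the Bayertitan effect 2142. With both, these 3 gave 408, 363 and 0, and G1-1 against Bayertitan 293, control levels 638, the G1-1 effect 2108 and the G3-1 effect 47. Without the Col3a1 libraries, G1-1 against G3-1 gave 0 (687 at an unadjusted p under 0.05), against Bayertitan 7, control levels 49, overload levels 909, the step to overload 1, and the effects of G1-1, G3-1 and Bayertitan 140, 0 and 0. For these last 0 counts 922 and 2378 genes were at an unadjusted p under 0.05, for Bayertitan with the epithelial covariate 1685 and with both 1711. The Printex90 effect gave 1158 as reported, 487 with the epithelial covariate, 607 with both and 48 without the Col3a1 libraries. The cause of these moves was not tested. In the fit without the Col3a1 libraries, the number of samples and the fibroblast transcripts change together and cannot be told apart.

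Genes that turned direction had not passed: Cdkn1a was -0.0105 with the epithelial and -0.00403 with both covariates. Gpnmb was 0.134 and 0.221 in those fits, 0.0496 without the Col3a1 libraries and 0.013 without G1-1 control 1. With single libraries left out Gpnmb ran from -0.141 to 0.013. Hmox1 was 0.0649, 0.0991 and 0.0733 in the first 3 of these, 0.0211 without Bayertitan control 3, 0.0104 without G1-1 control 1 and 0.00446 without G1-1 overload 1, in a range of -0.0931 to 0.0211 over single libraries left out. The fibroblast marker difference was -0.0504 with a pseudocount of 0.1 and -1.38 to 0.756 with a library left out, and the epithelial one 0.654 to 1.12 with a library left out. With 3 libraries per group, differences of low genes such as Stc2, Nos2 and Adm are imprecise.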

Other observations

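The families in this part were chosen after their values were seen and support nothing by themselves. Of 18 cytosolic aminoacyl-transfer RNA synthetases, which charge transfer RNAs with amino acids, 7 passed with a higher overload effect of G1-1 and 0 with a lower. They were Eprs, Wars1, Gars, Lars1, Aars, Sars1 and Cars. The median difference was 0.25, from median overload effects of 0.17 with G1-1, -0.012 with G3-1 and -0.12 with Bayertitan. Of 76 genes with Rpl or Rps symbols, most of them for cytosolic ribosomal proteins, 5 passed lower and 0 higher (median -0.07). This set was picked by symbol and also holds Rps19bp1 and like-named copies such as Rps18l1. Of 72 mitochondrial ribosomal protein genes, 4 passed lower and 1 higher (median -0.083). These family counts stand beside 2.03% lower and 0.938% higher over all tested genes.

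Genes with a lower effect of G1-1 had a shorter median span. The median genomic span in RefSeq (GRCr8) was 15.9 kb for the 272 of 295 lower genes with a span and 26.1 kb for the 124 of 136 higher genes, beside 24.9 kb for 12742 tested genes. Whether length plays a part was not tested.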
